A study of Mus musculus with 30 samples.

Results

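NAD-consuming enzymes break the bond between nicotinamide and ADP-ribose in NAD, and each member of the group uses the freed ADP-ribose in its own way. Of the 55401 genes counted in this study, the 10 described here were matched by name and identifier: the membrane ectoenzymes Cd38 and Bst1 (CD157), the intracellular hydrolase Sarm1, the poly-ADP-ribose polymerases Parp1 and Parp2, and the sirtuins Sirt1, Sirt2, Sirt3, Sirt6 and Sirt7. Cd38 and Bst1 both lie on chromosome 5 (GRCm38), Cd38 at 43868553 to 43912375 and Bst1 at 43818885 to 43843986, each on the plus strand.

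CD38 hydrolyses NAD and forms cyclic ADP-ribose, a calcium-releasing messenger, mostly at the surface of immune cells, and BST1 is its close relative on myeloid and stromal cells. PARP1 and PARP2 bind broken DNA and build ADP-ribose chains there. Sirtuins remove acetyl and other acyl groups from proteins, SIRT1, SIRT6 and SIRT7 mainly in the nucleus, SIRT2 mainly in the cytoplasm and SIRT3 in mitochondria. All depend on NAD, which cells rebuild from nicotinamide through NAMPT, so that the same nicotinamide these enzymes release is the substrate of NAMPT.

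RNA was sequenced from 30 libraries of mouse tumours grown from 4T1-GFP cells, a mouse mammary carcinoma line carrying green fluorescent protein, with a wild-type genotype given for all. Mice received C269, an antibody against extracellular NAMPT (2.5 mg/kg, 2 times a week for 1 month), or control IgG1 (CTRL) on the same schedule. The 6 groups of 5 libraries were 4T1 C269, 4T1 CTRL, CD8 C269, CD8 CTRL, CD4 C269 and CD4 CTRL, where 4T1 stands for sorted tumour cells and CD8 and CD4 for T cells taken from the tumours with magnetic beads. Separate mice are not stated for the libraries of a group, and the p-values below therefore speak only to the spread among these libraries, which could be technical. Animal age is not given in the sources used here.

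Libraries held 2005579 to 5176494 counts on genes, with the least in CD8 C269 at 2005579 to 3268974. Cd8a and Cd8b1 together reached 775 to 1184 CPM (counts of a gene per 1000000 gene counts of its library) in CD8 CTRL, against 21.9 to 42.6 CPM in CD4 CTRL. The sorted tumour cells carried strong signals of other cells: 7 neutrophil markers summed to 3851 to 13635 CPM in 4T1 CTRL, while 5 epithelial markers summed to 209 to 563 CPM there and to 203 to 311 CPM in CD4 CTRL. Fibroblast markers summed to 3143 to 53426 CPM and red cell markers to 153 to 19702 CPM in 4T1 CTRL. Of the 4T1 C269 libraries, those headed 9 and 10 in the deposited table went against the rest. Their Y-linked genes summed to 208 and 210.4 CPM, against at most 1.39 CPM in the other 28, their Xist stood at 0.449 and 0.193 CPM, and the intestinal mucin Muc2 stood at 4408 and 5348 CPM. Fold changes of the members in 4T1 C269 are therefore given with and without libraries 9 and 10.

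**Figure D1:**
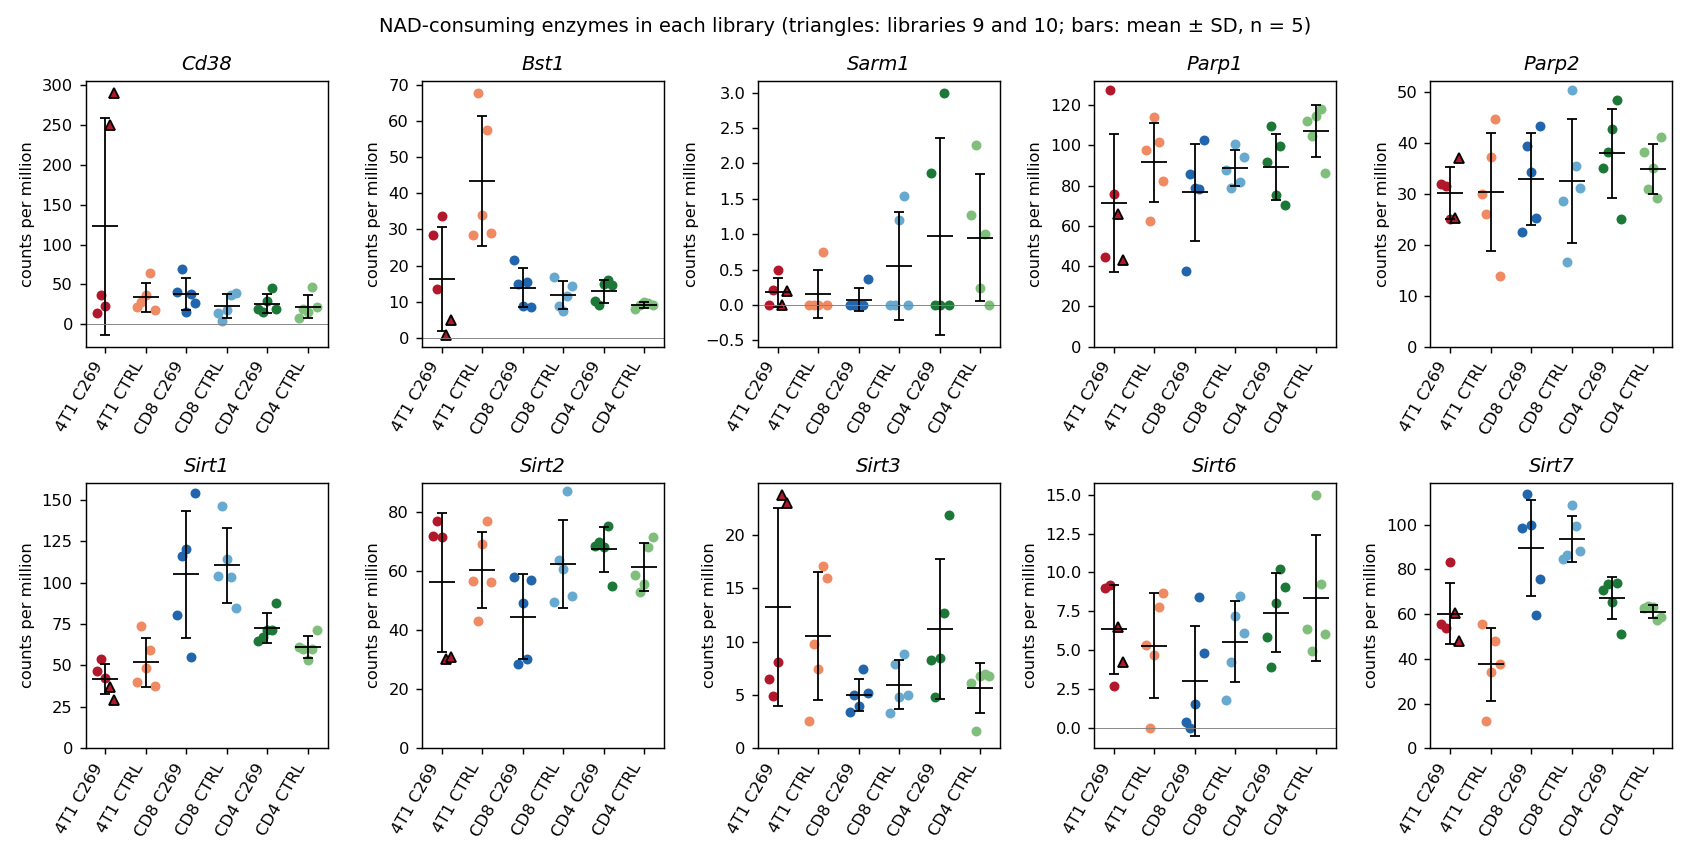
CPM (vertical axes) of the 10 enzymes in each of the 30 libraries, by population and treatment; points are libraries, triangles are libraries 9 and 10, and bars are mean ± SD with n = 5. Cd38 reached 250.1 and 290.0 CPM in libraries 9 and 10, Bst1 was high in 4T1 CTRL, and Sarm1 stayed below 3 CPM. Sirt1 and Sirt7 were high in CD8 CTRL and less even in CD8 C269, where library 29 held 54.8 and 59.8 CPM.

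To compare genes, CPM were divided by the exon length of each gene in kb. On that scale Parp1 led in 4T1 CTRL and CD4 CTRL, Sirt1 led in CD8 CTRL, and Sarm1 was lowest in each. Parp1 was highest in 4T1 CTRL, at 17.3 ± 3.74 CPM per kb (SD, n = 5 here and for all group means below unless another n is given). It was followed there by Bst1 at 13.1 ± 5.45 and Sirt2 at 11.98 ± 2.58 CPM per kb, a gap of less than 1 SD of Bst1 in each case. In CD4 CTRL the order was led by Parp1 at 20.3 ± 2.42 CPM per kb, ahead of Sirt2 (12.2 ± 1.61), Sirt7 (11.9 ± 0.573) and Sirt1 (11.5 ± 1.23), and these 3 sirtuins lay within 1 SD of each other. In CD8 CTRL the lead was shared by Sirt1 at 20.7 ± 4.23, Sirt7 at 18.2 ± 2.01 and Parp1 at 16.8 ± 1.68 CPM per kb, whose ranges of 1 SD overlapped.

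**Figure D2:**
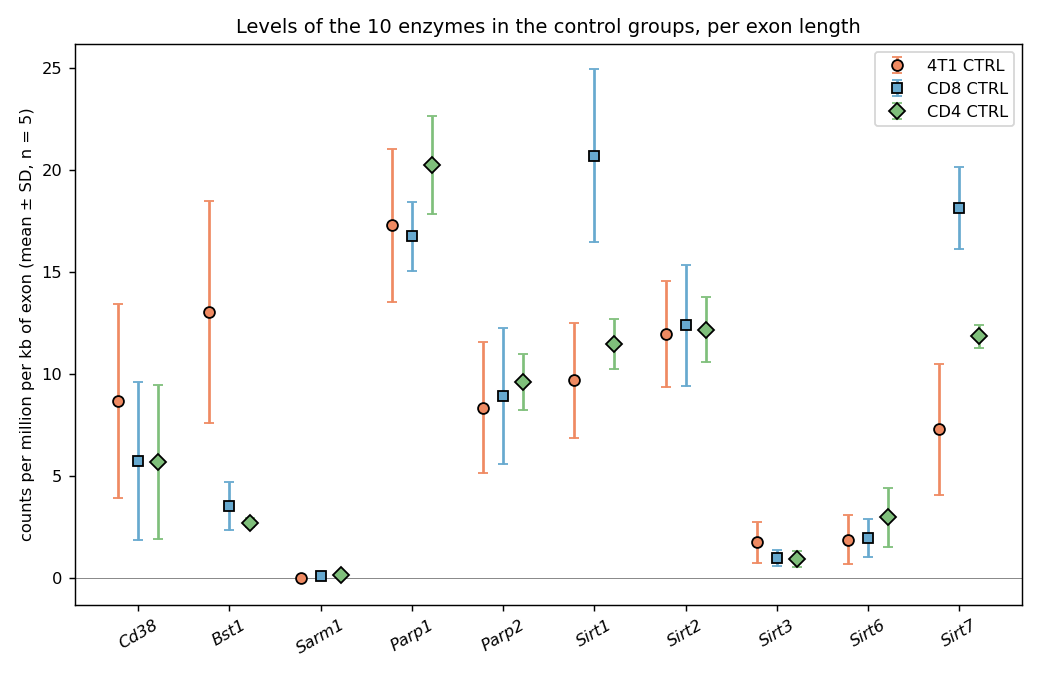
Mean CPM per kb of exon (vertical axis, ± SD, n = 5) of the 10 enzymes in the 3 control groups. Parp1 led in 4T1 CTRL and CD4 CTRL, Sirt1 and Sirt7 stood as high as Parp1 in CD8 CTRL, and Sarm1 lay near 0 in each group.

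Sarm1, whose product degrades NAD in injured axons, was close to the limit of detection. It had 4 counts in all 5 libraries of 4T1 C269 together, 3 in 4T1 CTRL, 1 in CD8 C269, 8 in CD8 CTRL, 19 in CD4 C269 and 20 in CD4 CTRL, and stood at 0 in 17 of the 30 libraries. A count of 0 allows up to 3 counts, which is 0.580 to 1.496 CPM depending on the library, covering counting error only. Sarm1 did not pass the filter on low counts in any comparison, so 9 of the 10 members were tested.

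The comparison of control populations asked where each enzyme was expressed, and Bst1, Sirt1 and Sirt7 differed. Bst1 was higher in 4T1 CTRL than in either T cell group, while Sirt1 and Sirt7 were lower in 4T1 CTRL than in CD8 CTRL, and CD8 CTRL exceeded CD4 CTRL for Sirt1. With all 30 libraries in edgeR's quasi-likelihood test, Benjamini-Hochberg adjustment over 14731 genes and a threshold of 0.05, 1 of 9 members passed for 4T1 over CD4, 3 of 9 for 4T1 over CD8 and 1 of 9 for CD8 over CD4. Of all genes tested, 5.8%, 31.9% and 6.94% passed in these comparisons, so that the members' shares were not far from the background. The share of all genes whose control groups did not overlap was not counted. In bulk RNA, fewer cells of a type and less RNA per cell cannot be told apart. The 4T1 groups were sorted and T cells taken with beads, so population and preparation cannot be told apart in the 4T1 comparisons.

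Among the ectoenzymes, Bst1 stood at 28.4, 67.7, 34.0, 57.4 and 29.1 CPM in the 4T1 CTRL libraries. In the CD8 CTRL libraries it stood at 16.9, 8.77, 7.49, 11.5 and 14.3 CPM, and in the CD4 CTRL libraries at 7.89, 9.02, 9.84, 9.50 and 9.08 CPM. Each 4T1 CTRL library lay above every T cell control library. The log2 difference was 2.30 (SE 0.51, edgeR adjusted p = 0.00623) for 4T1 over CD4 and 1.83 (SE 0.50, edgeR adjusted p = 0.00629) for 4T1 over CD8.

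The genes most like Bst1 across the 30 libraries included several known from myeloid cells. Ranked by Pearson correlation of log2 CPM among 14731 genes, they were Cd14, the co-receptor for bacterial lipopolysaccharide (r = 0.909), the coagulation factor gene F10 (0.907), Mcemp1, a membrane protein of mast cells and monocytes (0.895), and the C-type lectins Clec4e (0.889) and Clec4d (0.884). Cd14 (0.900) and Clec4d (0.871) were also among the 5 most alike over the 28 libraries without 9 and 10. These correlations run across populations prepared in different ways and libraries of differing depth, and carry no p. Bst1 and the summed neutrophil markers had r = 0.736 over 30 libraries, 0.794 without libraries 9 and 10 and 0.156 within the 20 T cell libraries. Those markers summed to 3851 to 13635 CPM in 4T1 CTRL, 257 to 506 CPM in CD8 CTRL, while CD4 CTRL had 573 to 870 CPM, with all 7 detected in each group, and their part in the Bst1 difference was not tested. Fibroblast markers summed to 3143 to 53426 CPM in 4T1 CTRL, 329 to 891 CPM in CD8 CTRL and 606 to 6062.5 CPM in CD4 CTRL, and their part was not tested either. Bst1 shares 98 exon bases with Fbxl5 on the opposite strand, where Fbxl5 held 9850 counts against 1923 for Bst1, so reads there may belong to either gene.

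Cd38, the other ectoenzyme, showed no difference past the threshold between control populations. It stood at 22.2, 28.1, 37.2, 64.2 and 17.3 CPM in 4T1 CTRL. The CD8 CTRL libraries held 14.6, 3.96, 17.4, 36.2 and 39.7 CPM, and the CD4 CTRL libraries 7.89, 18.5, 15.9, 46.8 and 21.5 CPM. The 3 ranges overlapped, and the log2 differences were 0.70 (SE 0.64) for 4T1 over CD4, 0.58 (SE 0.64) for 4T1 over CD8 and 0.12 (SE 0.64) for CD8 over CD4. The 46.8 CPM in CD4 CTRL came from library 14. There the T cell markers summed to 914 CPM and the macrophage and monocyte markers to 1671 CPM, against CD4 CTRL medians of 2224 and 600 CPM. The part of other cells in this Cd38 value was not tested.

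Within the 20 T cell libraries, the genes most like Cd38 were C5ar1, the receptor for complement fragment C5a (r = 0.907), Cd300lb (0.884), the Fc receptor gamma chain gene Fcer1g (0.866), Clec4a2 (0.859) and Coa4 (0.848). The first 4 are known from myeloid cells, and Coa4 encodes a mitochondrial assembly protein. Over the same 20 libraries Cd38 and the 7 summed macrophage and monocyte markers had r = 0.638, a description only. These sums ran from 552 to 1259 CPM in CD8 C269, 728 to 1207 CPM in CD8 CTRL, 368 to 971 CPM in CD4 C269 and 400 to 1671 CPM in CD4 CTRL, and all 7 markers were detected in each group. In the CD8 groups most of the sum was Ly6c2, at a mean of 563 CPM in CD8 CTRL and 81.3 CPM in CD4 CTRL. The macrophage marker C1qa was lower in CD8 CTRL, at 145 CPM against 259 CPM in CD4 CTRL. Which cells the Ly6c2 came from was not tested, so the sum cannot be read as macrophages and monocytes alone. Over all 30 libraries the leading genes were others, Cmpk1 (0.845), Ndufa8 (0.844), Msmo1 (0.826), Ndufv2 (0.818) and Rtn3 (0.816), and without libraries 9 and 10 they were Cyb5d2 (0.731), Sh3bp2 (0.720), Coa4 (0.713), Ndufa8 (0.702) and Rdm1 (0.702).

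**Figure D3:**
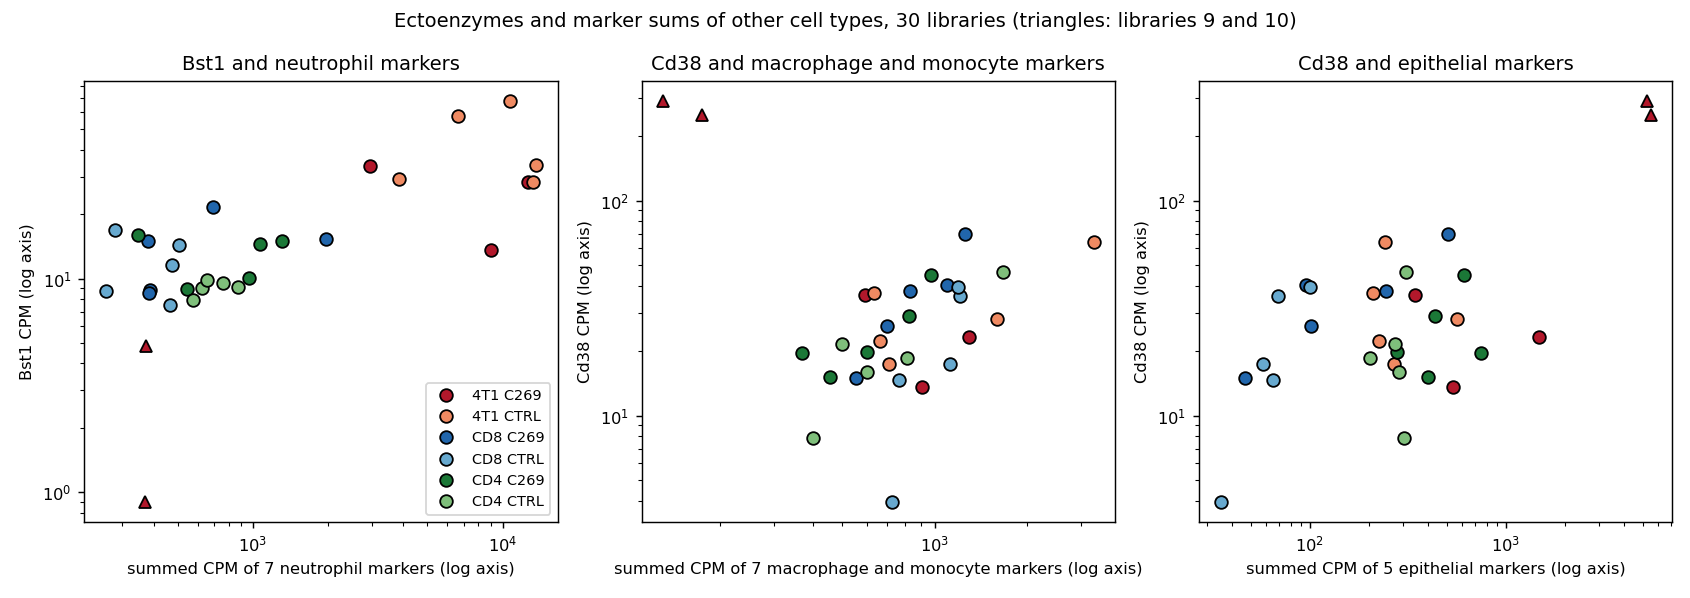
Bst1 against summed neutrophil markers, and Cd38 against summed macrophage and monocyte markers and against summed epithelial markers, in CPM on log axes; points are the 30 libraries by group and triangles are libraries 9 and 10. The 7 highest Bst1 values were all in 4T1 libraries, with library 7 of 4T1 C269 lower at 13.5 CPM, and libraries 9 and 10 stood apart with the highest Cd38, the highest epithelial sums and the lowest macrophage sums.

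Of the nuclear sirtuins, Sirt1, a deacetylase of histones and of transcription factors, stood at 39.8, 73.7, 48.6, 59.4 and 37.4 CPM in 4T1 CTRL. It stood at 104, 146, 114, 103 and 84.8 CPM in CD8 CTRL and at 61.1, 60.01, 53.4, 60.01 and 71.7 CPM in CD4 CTRL. Every CD8 CTRL library lay above every library of the other control groups, which overlapped with each other. Sirt1 differed by -1.12 on the log2 scale for 4T1 over CD8 (SE 0.23, edgeR adjusted p = 0.000468) and by 0.93 for CD8 over CD4 (SE 0.22, edgeR adjusted p = 0.00891). Without library 22, the highest CD8 CTRL library, the CD8 over CD4 difference was 0.80 and its adjusted p in edgeR was 0.05024.

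Sirt7, a deacetylase of histone H3 and of ribosomal RNA gene chromatin, ran in the same order. It stood at 55.6, 12.4, 34.3, 47.9 and 37.8 CPM in 4T1 CTRL, at 84.7, 86.3, 109.0, 99.3 and 88.3 CPM in CD8 CTRL and at 62.6, 63.9, 63.0, 57.3 and 58.5 CPM in CD4 CTRL. The 3 control groups did not overlap. Sirt7 passed for 4T1 over CD8, with a log2 difference of -1.30 (SE 0.25, edgeR adjusted p = 0.000256). It did not pass for CD8 over CD4 at 0.69 (SE 0.24, edgeR adjusted p = 0.0848) or for 4T1 over CD4 at -0.60 (SE 0.24, edgeR adjusted p = 0.136). CD8 over CD4 passed for Sirt7 when only those 10 libraries were fitted (edgeR adjusted p = 0.00114) and in DESeq2 (adjusted p = 0.0322). Both settings called more of all genes, 2823 of 12109 and 1585 of 14731, against 1022 of 14731 in the fit of all 30 libraries. For Sirt7, 4T1 over CD4 passed without library 1 (-0.82, edgeR adjusted p = 0.04652), while without library 2 it was -0.40 (edgeR adjusted p = 0.239). Sirt7 shares 124 exon bases with its neighbour Mafg on the same strand, and the assignment of reads there is not given in the sources used here.

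The promoter of Sirt1 is shown because Sirt1 passed for CD8 CTRL against both other control groups in the fit of all 30 libraries. Sirt7 also lay higher in every CD8 CTRL library than in the other control libraries, and its window was searched for the same motifs but is not printed. RefSeq held a promoter for 9 of the 10 members, all but Bst1. The stretch runs 5′ to 3′ on the minus strand at chr10:63339051-63339285 (GRCm38.p6) and ends where an annotated exon begins, 15 bases before the RefSeq start. In GENCODE M21 the Sirt1 gene runs from 63319005 to 63381704, so the stretch lies inside that gene, which also extends upstream of it. Capitals mark GC boxes (GGGCGG or its reverse complement CCGCCC) and E-boxes (CACGTG), which do not overlap each other here, although a pair of GC boxes overlap by some bases.
Sirt1 promoter: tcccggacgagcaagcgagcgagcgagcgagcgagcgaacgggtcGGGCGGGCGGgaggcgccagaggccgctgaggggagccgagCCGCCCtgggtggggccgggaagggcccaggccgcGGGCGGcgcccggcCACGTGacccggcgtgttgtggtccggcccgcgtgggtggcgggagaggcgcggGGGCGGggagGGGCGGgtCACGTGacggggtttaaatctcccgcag
Of this stretch 78.3% was G or C, and it held 6 GC boxes and 2 E-boxes. Searched on both strands in the 250 bases before the start of 32851 RefSeq genes, a GC box was present in 32.74% and an E-box in 6.02% of promoters. A CCAAT box (CCAAT), present in 33.85%, and the ETS motif CCGGAAG, present in 6.91%, had no match in the Sirt1 window. The Sirt7 window differed, with 1 GC box, 1 ETS motif, 0 E-boxes and 0 CCAAT boxes. These matches describe letters only.

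Sirt3, the mitochondrial deacetylase, was low and uneven. It stood at 2.57, 9.80, 7.39, 17.1 and 15.9 CPM in 4T1 CTRL, at 3.33, 7.92, 4.79, 8.85 and 5.01 CPM in CD8 CTRL, and finally at 6.11, 1.58, 6.79, 7.002 and 6.81 CPM in CD4 CTRL. The groups overlapped, and the log2 differences were 0.95 (SE 0.52) for 4T1 over CD4, 0.79 (SE 0.52) for 4T1 over CD8 and 0.16 (SE 0.52) for CD8 over CD4. Sirt3 shares 418 exon bases with Ric8a and 342 with Psmd13 on the opposite strand, and Psmd13 held 14965 counts in all libraries against 979 for Sirt3. Whether counting used strand is not given in the sources used here, so Sirt3 values are uncertain.

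The remaining members, the DNA-damage polymerases Parp1 and Parp2, the cytoplasmic sirtuin Sirt2 and the chromatin sirtuin Sirt6, had log2 differences between -0.55 and 0.11 in the 3 control comparisons, and none passed. Parp1 averaged 91.6 ± 19.8 CPM in 4T1 CTRL, 88.7 ± 8.89 CPM in CD8 CTRL, while CD4 CTRL had 107.2 ± 12.8 CPM. Parp2 averaged 30.3 ± 11.7, 32.4 ± 12.2 and 34.9 ± 4.94 CPM in the same groups. Sirt2 was the most even member, at 60.3 ± 12.99 CPM in 4T1 CTRL, 62.5 ± 14.9 CPM in CD8 CTRL, while CD4 CTRL had 61.4 ± 8.09 CPM. Sirt6 averaged 5.30 ± 3.39 CPM in 4T1 CTRL, 5.55 ± 2.61 CPM in CD8 CTRL, while CD4 CTRL had 8.33 ± 4.05 CPM.

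**Figure D4:**
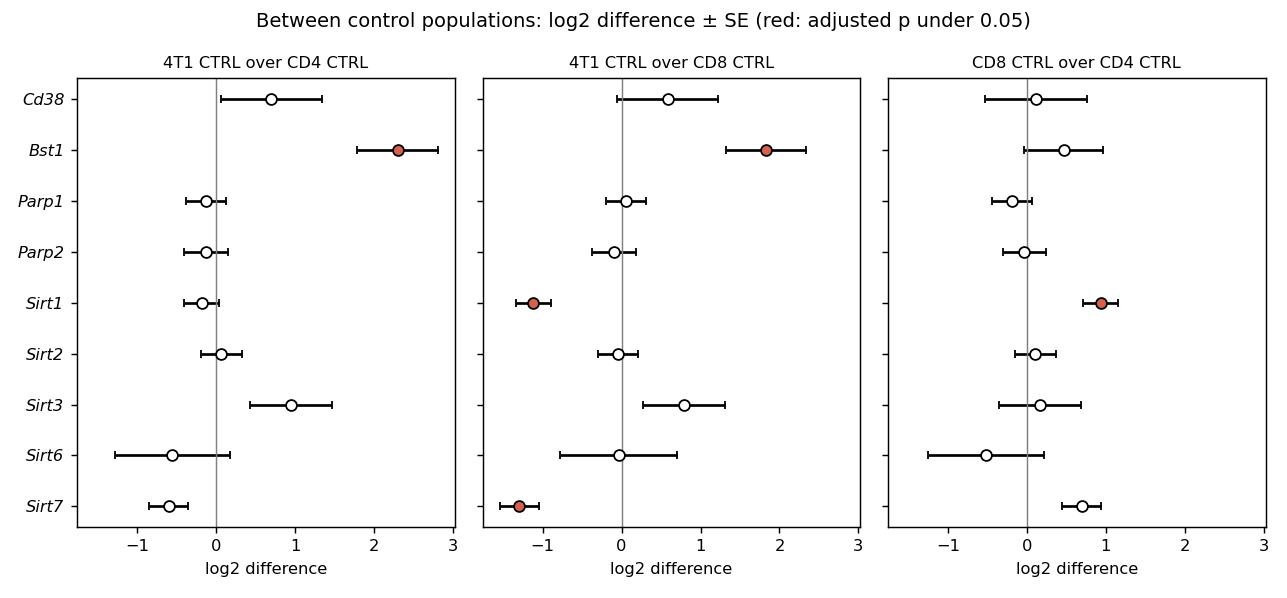
Log2 differences (horizontal axes, ± SE) of the 9 tested enzymes between control populations, from edgeR on all 30 libraries; red points had an adjusted p under 0.05. Bst1 was positive in both 4T1 comparisons, Sirt1 and Sirt7 were negative for 4T1 over CD8, and Sirt1 alone was red for CD8 over CD4.

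The same contrasts between the C269 groups gave partly other members. For Sirt1, 4T1 over CD8 was -1.24 (SE 0.23, edgeR adjusted p = 0.000226), and -1.01 (SE 0.26, edgeR adjusted p = 0.0066) without libraries 9 and 10. For Sirt7 it was -0.50 (SE 0.24, edgeR adjusted p = 0.124), and -0.38 (SE 0.28, edgeR adjusted p = 0.399) without them, and CD8 over CD4 for Sirt1 was 0.62 (SE 0.22, edgeR adjusted p = 0.0841). For Bst1, 4T1 over CD4 was 0.51 (edgeR adjusted p = 0.604) with all libraries and 1.15 (edgeR adjusted p = 0.0730) without libraries 9 and 10, and 4T1 over CD8 was 0.32 (edgeR adjusted p = 0.672) and 0.97 (edgeR adjusted p = 0.0534).

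Cd38 passed in the C269 groups for 4T1 over CD4 (2.41, edgeR adjusted p = 0.0222) and for 4T1 over CD8 (1.77, edgeR adjusted p = 0.0407), and both calls ended without libraries 9 and 10 (0.12 and -0.50). Sirt3 passed for 4T1 over CD8 at 1.47 (edgeR adjusted p = 0.0369), which was 0.49 without libraries 9 and 10, while Sirt2 passed only without them, at 0.84 (edgeR adjusted p = 0.0139). Between C269 groups 7.47% of all genes passed for 4T1 over CD4, 28.1% for 4T1 over CD8 and 8.1% for CD8 over CD4, and without libraries 9 and 10 the first of these shares was 2.74% and the second 17.1%.

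The comparison of C269 with CTRL asked whether the antibody changed the transcripts of enzymes that consume NAD. None of the 9 tested members passed in any population. Among all genes, edgeR with the same adjustment called 0 of 12875 in 4T1 (0%), 0 of 13750 there without libraries 9 and 10 (0%), 1 of 10943 in CD8 (0.00914%) and 0 of 12393 in CD4 (0%), so the members' count was that of the background. At an unadjusted p under 0.05 stood 1 member in 4T1 (Cd38), 0 in CD8 and 1 in CD4 (Sirt3), and 1536, 725 and 697 of all genes. DESeq2 called 305, 13 and 14 genes in 4T1, CD8 and CD4 and 0 members in each, and without libraries 9 and 10 it called 84 genes in 4T1, where 751 had an unadjusted p under 0.05 in edgeR.

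**Figure D5:**
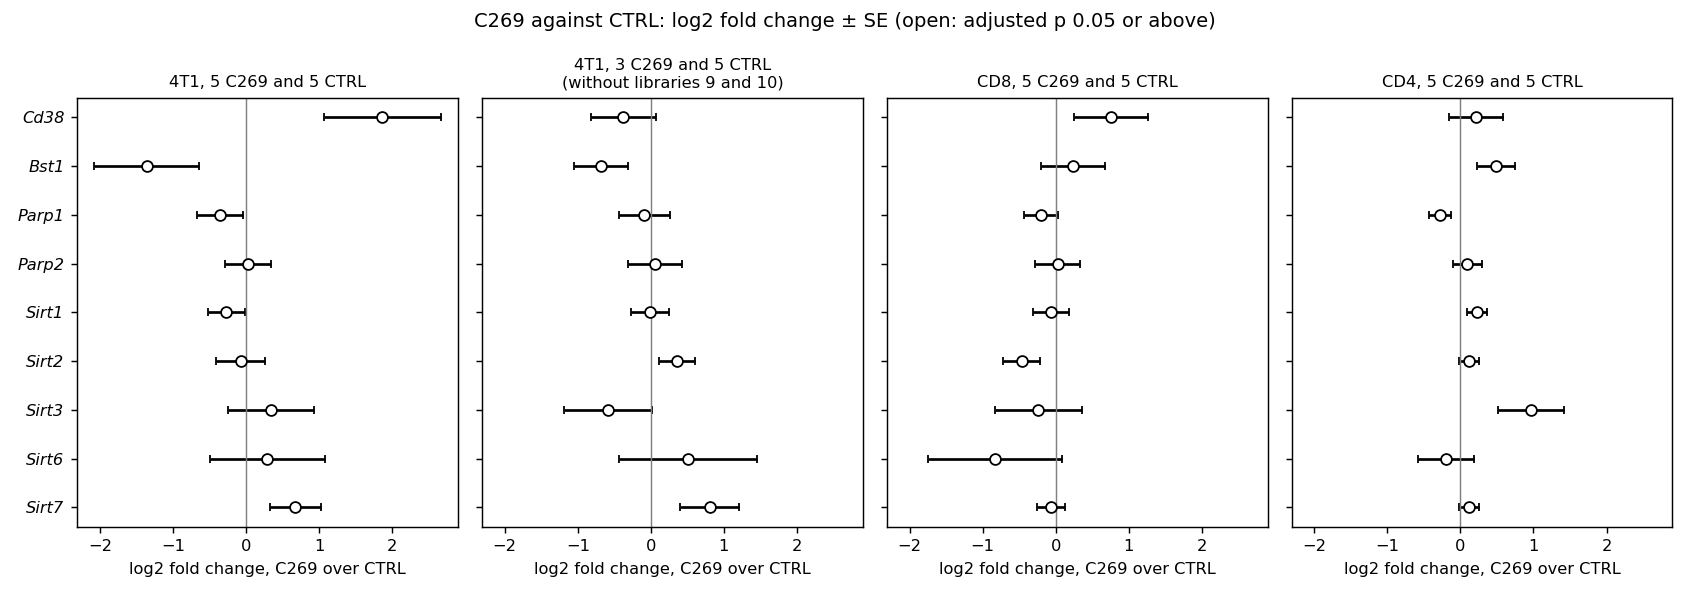
Log2 fold changes of C269 over CTRL (horizontal axes, ± SE) of the 9 tested enzymes in 4T1 cells with and without libraries 9 and 10, in CD8 and in CD4 T cells, from edgeR; all points are open because no adjusted p was under 0.05. Cd38 was at 1.86 in 4T1 with all libraries and at -0.38 without libraries 9 and 10.

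In 4T1 cells the Cd38 fold change rested on libraries 9 and 10, while that of Bst1 was smaller without them but kept its sign. Cd38 stood at 13.5, 36.3, 23.3, 250.1 and 290.0 CPM in 4T1 C269, the last 2 being libraries 9 and 10, against 22.2, 28.1, 37.2, 64.2 and 17.3 CPM in 4T1 CTRL. Its log2 fold change was 1.86 (SE 0.80, edgeR adjusted p = 0.398), and -0.38 (SE 0.45, edgeR adjusted p = 0.92) without those libraries. Bst1 stood at 28.4, 13.5, 33.8, 0.898 and 4.83 CPM in 4T1 C269, against 28.4, 67.7, 34.0, 57.4 and 29.1 CPM in 4T1 CTRL. Its fold change was -1.36 (SE 0.71, edgeR adjusted p = 0.464), and -0.68 (SE 0.37, edgeR adjusted p = 0.884) without libraries 9 and 10. In libraries 9 and 10 the epithelial markers summed to 5509 and 5287 CPM and the neutrophil markers to 369 and 374 CPM, against 344 to 1487 CPM and 2948 to 12639 CPM in the other 3 C269 libraries.

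Sirt7 had the largest fold change among the intracellular members in 4T1. It stood at 55.5, 53.9, 83.5, 60.4 and 47.9 CPM in 4T1 C269, against 55.6, 12.4, 34.3, 47.9 and 37.8 CPM in 4T1 CTRL. Only 2 of the 5 C269 libraries exceeded all controls. The fold change was 0.67 (SE 0.35, edgeR adjusted p = 0.458), and 0.81 (SE 0.41, edgeR adjusted p = 0.884) without libraries 9 and 10. Without library 2, the lowest control, it was 0.46.

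Sirt2 and Sirt3 took the other sign when libraries 9 and 10 were left out. Sirt2 stood at 71.8, 76.9, 71.5, 30.3 and 30.9 CPM in 4T1 C269 and at 56.4, 43.0, 69.0, 76.8 and 56.5 CPM in 4T1 CTRL, with fold changes of -0.07 (SE 0.33) and, without those libraries, 0.36 (SE 0.25). Sirt3 stood at 6.55, 4.92, 8.08, 23.8 and 22.99 CPM in 4T1 C269 and at 2.57, 9.80, 7.39, 17.1 and 15.9 CPM in 4T1 CTRL, with fold changes of 0.35 (SE 0.59) and -0.59 (SE 0.60). The fold changes of Parp1 (-0.36, SE 0.32), Parp2 (0.02, SE 0.31), Sirt1 (-0.27, SE 0.26) and Sirt6 (0.29, SE 0.79) each lay within 2 SE of 0. Without libraries 9 and 10 they were -0.09 (SE 0.35) for Parp1, 0.05 (SE 0.37) for Parp2, -0.011 (SE 0.26) for Sirt1 and 0.51 (SE 0.94) for Sirt6.

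In CD8 T cells the fold changes ran from -0.83 to 0.76 and the group ranges of all 9 members overlapped. How many of all genes overlapped in this way was not counted. Cd38 stood at 40.3, 69.8, 14.99, 38.0 and 26.1 CPM in CD8 C269, against 14.6, 3.96, 17.4, 36.2 and 39.7 CPM in CD8 CTRL (fold change 0.76, SE 0.51, edgeR adjusted p = 0.806). Sirt2 stood at 58.1, 28.4, 49.2, 30.1 and 57.05 CPM in CD8 C269 and at 49.6, 63.7, 60.8, 87.0 and 51.5 CPM in CD8 CTRL, with 3 C269 libraries under all controls (-0.47, SE 0.25, edgeR adjusted p = 0.772). The lowest of these, libraries 27 and 29, had the fewest genes with a count of all 30 libraries, 12208 and 13400, and the highest shares of ribosomal RNA, 7.95% and 7.24%, and the part of these in the Sirt2 value was not tested. Sirt6 rested on 36 counts in CD8 C269 and 85 in CD8 CTRL (-0.83, SE 0.92). Sirt1 averaged 105.2 ± 38.3 CPM in CD8 C269 and 110.4 ± 22.5 CPM in CD8 CTRL (-0.07, SE 0.24), and Sirt7 averaged 89.4 ± 21.5 and 93.5 ± 10.4 CPM (-0.06, SE 0.19). The fold changes of Bst1 (0.23, SE 0.44), Parp1 (-0.20, SE 0.23), Parp2 (0.03, SE 0.31) and Sirt3 (-0.24, SE 0.59) were each smaller than their SE.

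In CD4 T cells Sirt3 had the smallest p of the members. It stood at 8.24, 4.81, 8.45, 12.7 and 21.9 CPM in CD4 C269, against 6.11, 1.58, 6.79, 7.002 and 6.81 CPM in CD4 CTRL, and 4 of the 5 C269 libraries lay above all controls. The fold change was 0.97 (SE 0.45, edgeR adjusted p = 0.883). Without library 20, the highest, it was 0.57, and in that library the epithelial and fibroblast markers summed to 749.6 and 9643 CPM, the highest of the 10 CD4 libraries, whose other epithelial sums were at most 615 CPM. Whether these cells took part in the Sirt3 value was not tested.

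Bst1 stood at 10.1, 8.94, 14.9, 15.96 and 14.6 CPM in CD4 C269, against 7.89, 9.02, 9.84, 9.50 and 9.08 CPM in CD4 CTRL, again with 4 C269 libraries above all controls (0.48, SE 0.26, edgeR adjusted p = 0.899). Parp1 stood at 92.0, 109.8, 75.4, 99.5 and 70.5 CPM in CD4 C269 and at 112.3, 104.7, 114.5, 118.3 and 86.0 CPM in CD4 CTRL (-0.28, SE 0.15, edgeR adjusted p = 0.896). Fold changes of the others were 0.23 (SE 0.14) for Sirt1, 0.21 (SE 0.37) for Cd38, 0.12 (SE 0.14) for Sirt2, 0.12 (SE 0.14) for Sirt7, 0.10 (SE 0.19) for Parp2 and -0.20 (SE 0.39) for Sirt6, and all group ranges overlapped. Overlap over all genes was not counted here either.

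The difference of the C269 effect between populations was tested directly, since an effect in a single population shows no such difference. None of the 9 members passed in edgeR for CD4 minus 4T1, for CD8 minus 4T1 or for CD8 minus CD4, where 0.00679%, 0.00679% and 0% of 14731 genes passed. DESeq2 called 50, 453 and 2 genes and again 0 members. For Bst1 the effect in CD4 minus that in 4T1 was 1.79 (SE 0.70, edgeR adjusted p = 0.423) and that in CD8 minus 4T1 was 1.51 (SE 0.70, edgeR adjusted p = 0.276). Without libraries 9 and 10 these were 1.14 (SE 0.47) and 0.85 (SE 0.48). For Sirt7 the effect in CD8 minus that in 4T1 was -0.80 (SE 0.34, edgeR adjusted p = 0.247), and -0.92 (SE 0.37, edgeR adjusted p = 0.360) without libraries 9 and 10. For Cd38 it was -1.18 (SE 0.90), and 1.10 (SE 0.73) without libraries 9 and 10. The Sirt2 effect in CD8 minus that in 4T1 was -0.47 (SE 0.37), and -0.88 (SE 0.32, edgeR adjusted p = 0.341) without libraries 9 and 10.

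The wider NAD network was followed with 3 lists of genes. Among 17 other sirtuins, PARPs and ADP-ribosyltransferases, 4 differed between 4T1 CTRL and CD8 CTRL, 2 higher and 2 lower, where 31.9% of all genes passed, and 0 of 17 passed in the other 2 control comparisons. Sirt5, the mitochondrial desuccinylase, had a mean of 4.71 ± 4.79 CPM in 4T1 CTRL, against 0.516 ± 0.804 CPM in CD8 CTRL (log2 difference 3.19, SE 1.10, edgeR adjusted p = 0.0265), with 7 counts in CD8 CTRL. Parp3 had a mean of 65.4 ± 18.7 CPM in 4T1 CTRL, against 38.8 ± 8.13 CPM in CD8 CTRL (0.73, SE 0.26, edgeR adjusted p = 0.0335), and Parp4, the PARP of vault particles, stood at 33.3 ± 11.4 CPM in 4T1 CTRL and 55.02 ± 3.06 CPM in CD8 CTRL (-0.71, SE 0.27, edgeR adjusted p = 0.0424). Art2b, an ADP-ribosyltransferase of the mouse T cell surface, was at 0 in all 5 libraries of 4T1 CTRL and averaged 2.74 ± 1.07 CPM in CD8 CTRL (edgeR adjusted p = 0.00814). The smallest p in the other comparisons belonged to Art2b (edgeR adjusted p = 0.0820) and Tnks2 (-0.51, SE 0.20) for 4T1 over CD4, and to Sirt5 (-3.24, SE 1.09) and Parp12 (-0.996, SE 0.38) for CD8 over CD4.

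Of 10 genes that remove ADP-ribose, respond to it or serve PARPs, 1 was higher and 1 lower in 4T1 CTRL than in CD8 CTRL, beside 31.9% of all genes. Trpm2, a calcium channel opened by ADP-ribose, had a mean of 18.1 ± 13.1 CPM in 4T1 CTRL, against 2.42 ± 3.21 CPM in CD8 CTRL (2.90, SE 1.00, edgeR adjusted p = 0.0273). Hpf1, the cofactor that directs PARP1 and PARP2 to serine, had a mean of 39.2 ± 12.4 CPM in 4T1 CTRL, against 61.8 ± 9.62 CPM in CD8 CTRL (-0.66, SE 0.25, edgeR adjusted p = 0.0475). None of the 10 passed in the other 2 control comparisons, where the smallest p belonged to Adprhl2 (-0.81, SE 0.30) and Trpm2 (2.17, SE 0.96) for 4T1 over CD4 and to Parg (0.42, SE 0.31) and Macrod1 (0.55, SE 0.58) for CD8 over CD4.

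Of 13 genes of NAD synthesis, NAD transport and nicotinamide clearance, 12 were tested, and 2 were higher and 1 lower in 4T1 CTRL than in CD8 CTRL, again beside 31.9% of all genes. None of the 3 lists had a share of calls above that background. Nadk, which makes NADP from NAD, had a mean of 83.5 ± 13.3 CPM in 4T1 CTRL, against 45.3 ± 10.3 CPM in CD8 CTRL (0.87, SE 0.22, edgeR adjusted p = 0.00297). Nampt stood at a mean of 164 ± 88.6 CPM in 4T1 CTRL and 90.1 ± 11.3 CPM in CD8 CTRL (0.83, SE 0.24, edgeR adjusted p = 0.00896). Nmnat2, a cytoplasmic maker of NAD known for protecting axons, averaged 0.759 ± 0.813 CPM in 4T1 CTRL, 7.37 ± 4.72 CPM with CD8 CTRL and 0.871 ± 0.860 CPM with CD4 CTRL, and it passed for 4T1 over CD8 (-3.11, SE 0.92, edgeR adjusted p = 0.0107) and for CD8 over CD4 (3.14, SE 0.92, edgeR adjusted p = 0.0335). It was the only gene of the 3 lists past the threshold for CD8 over CD4, and none passed for 4T1 over CD4, where Qprt (-1.81, SE 0.78) and Nadk (0.40, SE 0.21) had the smallest p of their list.

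C269 left no gene of these lists past the threshold in any population. The median log2 fold changes of the tested genes in 4T1 were 0.06 for the other NAD-using enzymes, 0.06 for the ADP-ribose list and 0.04 for the NAD synthesis list, beside 0.02 over all genes and 0.02 over the 9 members. Without libraries 9 and 10 these medians were -0.10, -0.005 and -0.09, beside 0.001 over all genes and -0.011 over the members. In CD8 they were -0.01, -0.05 and 0.21, beside 0.01 over all genes and -0.07 over the members. In CD4 they were -0.03, -0.08 and -0.31, beside 0.01 over all genes and 0.12 over the members.

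The genes with the smallest p in each list were these. In 4T1 the fold changes were 0.72 (SE 0.29) for Parp4, -1.05 (SE 0.42) for Parp11, -1.26 (SE 0.77) for Trpm2, 1.58 (SE 1.11) for Macrod2, -1.74 (SE 0.94) for the nicotinamide methyltransferase gene Nnmt and 1.68 (SE 1.01) for Naprt, and the averages of Macrod2 and Naprt in 4T1 C269 were 6.03 and 19.1 CPM with libraries 9 and 10 and 1.58 and 5.78 CPM without. Without those libraries the rule also named Nudt5, at -0.60 (SE 0.50), and Qprt, at 0.70 (SE 1.04). The other fold changes without them were 0.53 (SE 0.33) for Parp4, -0.91 (SE 0.49) for Parp11, -0.64 (SE 0.70) for Trpm2 and -1.05 (SE 0.80) for Nnmt. In CD8 the fold changes were 0.23 (SE 0.16) for Tiparp, 0.52 (SE 0.49) for Parp12, 0.57 (SE 0.32) for Adprhl2, 0.80 (SE 0.49) for Oard1, 0.33 (SE 0.21) for Nadk and 0.21 (SE 0.19) for Nampt. In CD4 they were 0.34 (SE 0.20) for Parp4, 0.26 (SE 0.20) for Parp9, -0.55 (SE 0.35) for Oard1, -0.19 (SE 0.22) for Adprhl2, -0.46 (SE 0.37) for Nadk2 and 0.20 (SE 0.19) for Nadk.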

How the data were processed

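The deposited tables hold counts per gene for 10 libraries of each population, counted by the authors with featureCounts per the submitters' processing notes, which also name FastQC, DESeq2 and mm9. Gene starts matched GENCODE M21 (GRCm38) for 99.61% of 55141 identifiers, so GRCm38 coordinates are used. The aligner, and whether strand was used, is not given in the sources used here. The authors' own deposited comparisons were not used. Each library column was tied to its group because the deposited sum of a group equalled 1 set of 5 columns out of 252, and libraries are called by their column number. The members and gene lists were chosen with earlier results of these data known.

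The 7 ribosomal RNA rows, which held 3.05% of counts, were left out. C269 was tested against CTRL in the 10 libraries of a population, and populations in a fit of all 30, with edgeR 4.0.16 (quasi-likelihood test, R 4.3.3), filterByExpr, TMM normalization and Benjamini-Hochberg adjustment at 0.05. SE is the log2 fold change divided by the root of F. Likeness used log2 CPM with a prior count of 2. Genes were named by rule: all members, and from each list up to 4 passing genes or the 2 with the smallest p. Alternatives were DESeq2 1.42.0, library totals only, no filter, ribosomal RNA kept, each library left out, libraries 9 and 10 left out, the 10 libraries of a comparison alone, and the C269 groups. The tests were also run on simulated counts without mixed cell content such as that of the 4T1 groups, and no result here rests on that run.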

Additional observations from a re-analysis of the deposited data

Results flagged for a closer look

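In 60 groups of 5 libraries (10 members, 6 groups), 3 had a library far from the other 4, while chance flags about 1 in 20 groups. Sarm1 stood at 0.753 CPM in library 4 of 4T1 CTRL and at 0 in the other 4, and at 0.373 CPM in library 30 of CD8 C269 and at 0 in the other 4, so that 3 counts and 1 count made these values. Sirt3 stood at 1.58 CPM in library 12 of CD4 CTRL, against 6.11 to 7.002 CPM in the other 4. Without library 12, the Sirt3 fold change of C269 over CTRL in CD4 was 0.73.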

How the results depend on the processing

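No paired analysis was possible because the letters that number replicates in the sample titles cannot be tied to library columns. For C269 against CTRL, 0 members passed in each population under every alternative named above, which does not show that levels were equal. The C269 contrasts within the fit of all 30 libraries are not counted here, and their values for the members are not given. Of 14731 genes, that fit called 596 in 4T1, 0 in CD8 and 0 in CD4. For 4T1 over CD4 in the control groups 1 member passed, and between the C269 groups without libraries 9 and 10 0 passed; leaving out single libraries gave 1 to 2. For CD8 over CD4 1 passed, against 0 between the C269 groups, 2 in DESeq2 and 2 in the fit of those 10 libraries, and leaving out single libraries gave 0 to 1. DESeq2 and the fit of those 10 libraries also called more of all genes, 1585 of 14731 and 2823 of 12109, against 1022 of 14731. For 4T1 over CD8, 3 passed and the alternatives gave 2 to 3, other members among them between the C269 groups. DESeq2 without libraries 9 and 10, and the C269 groups without them, were chosen after seeing the data.

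In 4T1, C269 over CTRL without libraries 9 and 10 gave -0.38 for Cd38, 0.36 for Sirt2 and -0.59 for Sirt3, and in DESeq2 without them -0.41, 0.33 and -0.64; Parp2 was -0.012 with library totals only. In CD8, Parp2 was -0.009 without the filter. Between the C269 groups without libraries 9 and 10, 4T1 over CD4 was -0.59 for Sirt3 and 0.11 for Sirt7, and 4T1 over CD8 was -0.50 for Cd38, which had passed at 1.77 with those libraries. CD8 over CD4 for Sirt3 was -1.07 between the C269 groups. The difference of the C269 effect for Cd38 without libraries 9 and 10 was 0.57 for CD4 minus 4T1 and 1.10 for CD8 minus 4T1. The cause was not tested.

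Leaving out single libraries also turned signs. C269 over CTRL ran in 4T1 from -0.16 to 0.17 for Parp2 and from -0.23 to 0.12 for Sirt2, in CD4 from -0.043 to 0.63 for Cd38 and from -0.33 to 0.14 for Sirt6, and in CD8 from -0.14 to 0.24 for Parp2, from -0.26 to 0.083 for Sirt1 and from -0.15 to 0.039 for Sirt7. CD8 over CD4 ran from -0.23 to 0.52 for Cd38 and from -0.084 to 0.30 for Sirt3. Of the 216 refits for Parp1, Parp2, Sirt2 and Sirt6 between populations, 28 changed sign and 1 passed, Sirt2 for 4T1 over CD8 between the C269 groups without libraries 9 and 10 (0.84, against -0.04 between control groups).

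Over all genes, 4T1 over CD4 called 855, against 1679 in DESeq2, 1570 without libraries 9 and 10 and 435 between the C269 groups without them; 4T1 over CD8 called 4697, against 2721 in that last setting. CD8 over CD4 called 1022, against 1585 in DESeq2, 1651 between the C269 groups without libraries 9 and 10 and 2823 in the fit of those 10 libraries. Without the filter, C269 against CTRL called 162 genes in CD8 and 83 in CD4, and its effect difference 58 for CD8 minus 4T1 and 6 for CD4 minus 4T1; the fit of all 30 libraries called 596 in 4T1. Leaving out single libraries took 4T1 over CD4 to 569, 426, 477 and 435 genes without libraries 11, 12, 13 and 15, CD8 over CD4 to 565 and 604 without libraries 14 and 22, C269 against CTRL in CD4 to 10 without library 15, and the effect difference CD8 minus 4T1 to as many as 216, without library 6. The median of all genes for 4T1 over CD8 was 0.05 with TMM and 0.16 in DESeq2. Depth limits Sarm1, Sirt3 and Sirt6 most.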
